A study of Mus musculus with 12 samples.

Results

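Fhl2 and Robo3 are the genes around which 6 genes are described here, with their relatives Fhl1 and Fhl3 and Robo1 and Robo2, out of 47069 genes counted and 16157 tested in mouse liver cancer organoid cells. Fhl2 and Robo3 were chosen by measured values, as genes with very small P for the change after 5-FU in LGR5+ and LGR5- cells. The 4 relatives were added by family and not by their P, though with earlier results of these data known. In the present fit Fhl2 and Robo3 held places 1 and 2 by P in LGR5+ cells, and Robo3 held place 1 in LGR5- cells, where Fhl2 held place 9. Their change after 5-FU is therefore given as a description, without a test.

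RNA was sequenced from 12 libraries, 3 in each of 4 groups, namely LGR5- and LGR5+ cells without drug and both populations after 5-FU. All came from liver cancer organoids of C57BL/6 mice labelled LGR5-DTRGFP+, in which the diphtheria toxin receptor and GFP are made under control of Lgr5, a stem cell marker, so both populations carried the allele and were separated by GFP. 5-FU, 5-fluorouracil, is a drug that blocks thymidylate synthesis and disturbs RNA and DNA. The dose and duration for these libraries, and the number of organoid lines or mice behind the 3 libraries of a group, were not given in the sources used here, so P-values measure only the spread between libraries, which may be technical.

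Fhl2, Fhl1 and Fhl3 encode FHL proteins, small adaptors built of LIM zinc fingers that bind integrins, kinases and transcription factors and move between focal adhesions, actin filaments and the nucleus. Fhl2 is best known from heart and from serum response factor (SRF) signalling, in which actin polymerization frees the MRTF coactivators to act with SRF. Robo1, Robo2 and Robo3 encode roundabout receptors, which guide axons and migrating cells in response to SLIT ligands. Mammalian ROBO3 is the divergent member: it binds SLIT poorly, responds to the secreted protein NELL2 and works with the netrin receptor DCC in commissural neurons.

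The libraries held 13750591 to 19323514 counted reads, so that 3 reads, the most that a count of 0 allows, came to 0.165 to 0.220 CPM (reads scaled to a common library size, after TMM correction). This limit covers counting error only. Both LGR5- libraries numbered 3 stood apart, with 6.93% (untreated) and 6.44% (5-FU) of reads from mitochondrial genes against 1.47% to 3.08% in the other 10. Defining hepatocyte genes were near absent, with at most 2 reads of Hnf4a and at most 1 of Ttr in any library and none of Serpina1a or Fgb, although Afp, the fetal liver gene, held 178 to 966 reads. By contrast, the 6 bile duct genes together reached 2387 CPM or more in every library and the 6 lung epithelium genes, mainly the surfactant gene Sftpc, 2758 CPM or more. Sftpc held 2619 to 17335 CPM and the lung factor gene Nkx2-1 43.3 to 76.3 CPM. The labelled tissue was thus not matched by the genes of mature hepatocytes. The study describes 2 kinds of tumor organoid, one like cholangiocarcinoma, with EpCAM and CK19, and one like hepatocellular carcinoma, with HNF4A and AFP. Which kind was sequenced was not given in the sources used here.

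The DNA just upstream of the RefSeq start sites is shown for Fhl2, which has 2 start sites in that table, for Robo3, and for Robo1, whose level did not follow Robo3. Each stretch is the 250 bases before the start, read 5′ to 3′ on the gene's strand in GRCm38.p6, and capitals mark a CArG box, the motif bound by SRF. Fhl2 window 1 lies at chr1:43163962-43164211 and window 2 at chr1:43196762-43197011, both on the minus strand. The Robo3 window is chr9:37433176-37433425 on the minus strand and the Robo1 window chr16:72662899-72663148 on the plus strand.
Fhl2 window 1: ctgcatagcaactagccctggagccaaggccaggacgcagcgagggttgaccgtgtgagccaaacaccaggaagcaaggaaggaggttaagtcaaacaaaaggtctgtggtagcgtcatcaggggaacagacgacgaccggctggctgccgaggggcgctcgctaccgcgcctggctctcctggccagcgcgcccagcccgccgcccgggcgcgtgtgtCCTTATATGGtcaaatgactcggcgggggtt
Fhl2 window 2: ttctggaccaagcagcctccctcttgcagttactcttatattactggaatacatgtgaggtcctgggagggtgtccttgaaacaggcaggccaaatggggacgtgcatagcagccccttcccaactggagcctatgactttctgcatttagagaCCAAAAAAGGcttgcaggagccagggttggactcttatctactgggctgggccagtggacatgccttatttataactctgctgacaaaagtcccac
Robo3: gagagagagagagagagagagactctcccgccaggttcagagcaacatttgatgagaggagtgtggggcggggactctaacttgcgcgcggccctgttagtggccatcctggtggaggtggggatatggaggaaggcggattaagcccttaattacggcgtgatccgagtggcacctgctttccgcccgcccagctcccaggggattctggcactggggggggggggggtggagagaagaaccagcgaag
Robo1: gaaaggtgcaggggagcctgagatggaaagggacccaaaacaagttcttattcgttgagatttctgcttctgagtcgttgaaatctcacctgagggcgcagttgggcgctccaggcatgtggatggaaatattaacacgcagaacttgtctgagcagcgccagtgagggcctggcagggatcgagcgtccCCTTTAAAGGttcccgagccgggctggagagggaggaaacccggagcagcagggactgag
Both Fhl2 windows held a CArG box, at bases 31 to 22 before the start in window 1 and 96 to 87 in window 2. The Robo1 window held one at bases 60 to 51 and the first Fhl1 window one at bases 102 to 93, while the windows of Robo3, Fhl3 and Robo2 held none. Among all 32851 RefSeq windows of this length 1.47% held a CArG box. Among the 24 windows of listed SRF-MRTF genes it was 29.2% (7 windows of 7 genes, out of 20 genes with a window). A p53 decamer motif stood in window 2 of Fhl2 and at 2 places in Robo1, against 7.13% of all windows. None of the 10 windows of the 6 genes held the AP-1 letters TGANTCA or the TEAD letters GGAATG, on either strand, which stood in 6.75% and 12.6% of all windows. The CArG boxes and p53 motifs did not overlap each other. A motif match describes these letters and is no evidence of binding.

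Fhl2 was higher in every treated library than in any untreated one and was level across untreated cells. The gene lies on chromosome 1 (43123074 to 43196984, minus strand, GRCm38, ENSMUSG00000008136). Untreated LGR5- libraries held 74, 71 and 86 Fhl2 reads, which is 4.48, 3.90 and 4.78 CPM. Untreated LGR5+ libraries held 78, 71 and 68 reads, which is 4.50, 4.36 and 4.06 CPM. The untreated populations overlapped fully. After 5-FU, LGR5- libraries held 349, 424 and 283 reads (20.5, 24.8 and 20.8 CPM). After 5-FU, LGR5+ libraries held 711, 670 and 569 reads (40.0, 36.9 and 33.3 CPM). Every treated library lay above every untreated one, and every treated LGR5+ library lay above every treated LGR5- library.

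As group means, Fhl2 went from 4.38 ± 0.448 to 22.0 ± 2.41 CPM in LGR5- cells and from 4.31 ± 0.226 to 36.7 ± 3.35 CPM in LGR5+ cells (SD, n = 3). The fitted log2 fold change was 2.33 with a standard error of 0.18 in LGR5- cells, 5.02-fold, and 3.09 with a standard error of 0.18 in LGR5+ cells, 8.50-fold. Without both LGR5- libraries numbered 3 the value in LGR5- cells was 2.44. In size alone, 316 genes in LGR5- cells and 186 genes in LGR5+ cells had a larger rise. Its spread was small: the SD of log2 CPM within groups was 0.13, and 2.82% of the genes tested had a smaller one. As the gap between the responses of both populations is built from the values that chose the gene, it is given without a test: 0.76 on the log2 scale, standard error 0.24.

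Robo3 held 4 to 14 reads in untreated libraries and 247 or more after 5-FU. It lies on chromosome 9 (37415669 to 37433246, minus strand, ENSMUSG00000032128). Untreated LGR5- libraries held 5, 4 and 4 Robo3 reads (0.303, 0.219 and 0.222 CPM). Untreated LGR5+ libraries held 7, 14 and 4 reads (0.404, 0.860 and 0.239 CPM). All 6 of these libraries lay above the 3-read limit, 4 of them with 4 or 5 reads and the other two, both LGR5+, with 7 and 14 reads. After 5-FU, LGR5- libraries held 247, 275 and 264 reads (14.5, 16.1 and 19.4 CPM). After 5-FU, LGR5+ libraries held 401, 404 and 418 reads (22.5, 22.2 and 24.4 CPM). No treated library came near an untreated one: the lowest treated CPM was 48.0 times the highest untreated CPM in LGR5- cells and 25.8 times in LGR5+ cells.

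The Robo3 means went from 0.248 ± 0.0475 to 16.7 ± 2.46 CPM in LGR5- cells and from 0.501 ± 0.322 to 23.1 ± 1.20 CPM in LGR5+ cells (SD, n = 3). The fitted log2 fold change was 6.03 with a standard error of 0.35 in LGR5- cells, 65.6-fold, and 5.51 with a standard error of 0.33 in LGR5+ cells, 45.6-fold. The sizes rest on the few untreated reads. Without the untreated LGR5+ library of 14 reads the value in LGR5+ cells was 6.13, and without both LGR5- libraries numbered 3 the value in LGR5- cells was 5.84. Only 18 genes in LGR5- cells and 29 genes in LGR5+ cells had a larger fitted rise. The SD of log2 CPM within groups was 0.44, and 64.8% of the genes tested had a smaller one. The spread enters P, so for both genes it is part of the choice. The difference between the 2 responses, given without a test, was -0.52 on the log2 scale with a standard error of 0.50, and 0.10 without that untreated LGR5+ library.

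**Figure D1:**
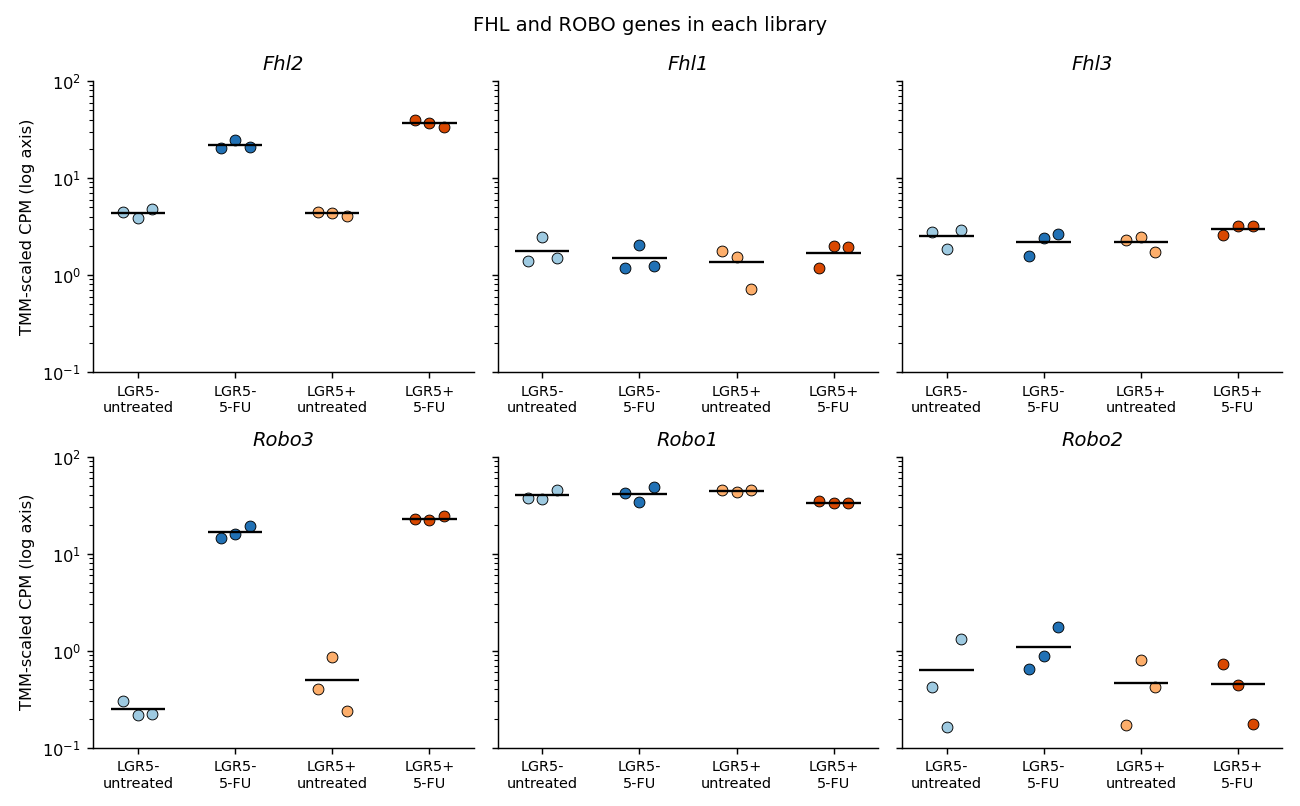
TMM-scaled CPM of each of the 6 genes (log axis) in the 3 libraries of each group, with points for libraries and bars for group means. Fhl2 and Robo3 sit far higher in all treated libraries, while Fhl1, Fhl3 and Robo2 overlap between most groups and Robo1 lies between 33.0 and 48.3 CPM throughout.

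The populations were then compared with each other. For Fhl2 and Robo3 this rests on the same libraries and the same spread as the values that chose them, so it is given without a test. Before treatment, the log2 fold change of Fhl2 between LGR5+ and LGR5- cells was -0.02, with a standard error of 0.18. Robo3 was 0.99 higher on the log2 scale in untreated LGR5+ cells, standard error 0.45, in overlapping groups at 4 to 14 reads, and 0.38 higher without the library of 14 reads. After 5-FU, Fhl2 was 1.66-fold higher in LGR5+ cells, a log2 fold change of 0.74 with a standard error of 0.16, and Robo3 was 0.47 higher on the log2 scale, standard error 0.24. Neither gene's treated groups overlapped, as was seen for 24.4% of all genes in treated and 5.28% in untreated cells.

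The relatives were added by family and not by their P, though with earlier results known, and none of the 4 was called between populations. After 5-FU, the value in LGR5+ minus that in LGR5- cells, on the log2 scale, was 0.18 for Fhl1, 0.44 for Fhl3, -0.31 for Robo1 and -1.26 for Robo2 (adjusted P = 0.860, 0.529, 0.410 and 0.458, edgeR quasi-likelihood test with Benjamini-Hochberg adjustment). In untreated cells it was -0.41, -0.21, 0.16 and -0.47 in the same order, each at an adjusted P of 1 (edgeR), and without untreated LGR5- library 3 the Robo2 value was 0.65. All these groups overlapped. The fit did not pair libraries. With the replicate number as a block, the adjusted P in treated cells was 0.807 for Fhl1, 0.508 for Fhl3, 0.349 for Robo1 and 0.478 for Robo2 (edgeR). Of all genes 0% were called by edgeR, both in untreated and in treated cells. At an unadjusted P under 0.05 there were 214 genes in untreated and 2095 genes in treated cells, and DESeq2 called 0 and 92.

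Set in order, the Fhl2 level was highest in treated LGR5+ cells, then in treated LGR5- cells, and then about equal in both untreated groups, whose libraries overlapped. The Robo3 order was the same at the top, with the untreated groups overlapping below. Fhl1, Fhl3 and Robo2 had no such order, since every pair of neighbouring groups overlapped.

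Fhl1, which encodes the skeletal muscle member of the family, lies on chromosome X (56731787 to 56793346, plus strand) and stayed low. Its reads per library ranged from 12 to 45, and its mean CPM was 1.79 ± 0.593 and 1.35 ± 0.561 in untreated LGR5- and LGR5+ cells and 1.49 ± 0.485 and 1.70 ± 0.448 after 5-FU (SD, n = 3). The log2 fold change after 5-FU was -0.26 in LGR5- cells (standard error 0.44, adjusted P = 0.747) and 0.33 in LGR5+ cells (standard error 0.44, adjusted P = 0.670, edgeR). The groups overlapped in both. Fhl3, which encodes another striated muscle adaptor and lies on chromosome 4 (124700701 to 124708611, plus strand), held 27 to 58 reads per library. Its log2 fold change was -0.19 in LGR5- cells (standard error 0.33, adjusted P = 0.756) and 0.47 in LGR5+ cells (standard error 0.33, adjusted P = 0.377, edgeR). In LGR5+ cells the lowest treated Fhl3 library, at 2.59 CPM, lay just above the highest untreated one, at 2.46 CPM.

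Robo1, a SLIT receptor gene on chromosome 16 (72308306 to 73046095, plus strand), was well covered at 564 to 821 reads per library. In LGR5- cells it had 37.9, 37.0 and 45.6 CPM untreated and 42.3, 34.3 and 48.3 CPM after 5-FU, in overlapping groups (log2 fold change 0.05, standard error 0.16, adjusted P = 0.875, edgeR). In LGR5+ cells it had 45.4, 43.4 and 45.4 CPM untreated and 34.8, 33.0 and 33.0 CPM after 5-FU. These groups did not overlap. The log2 fold change was -0.41 with a standard error of 0.16, an unadjusted P of 0.0222 and an adjusted P of 0.0986 in edgeR's test. With only the libraries compared in the fit, or without both LGR5- libraries numbered 3, the adjusted P was 0.0329 or 0.0239, and Robo1 was then called lower. Robo2, its neighbour on chromosome 16 (73891839 to 74411825, minus strand), was close to the detection limit, with 3 to 24 reads per library and an SD of log2 CPM within groups of 0.99, so its log2 fold changes of 0.75 in LGR5- cells and -0.03 in LGR5+ cells carried standard errors of 0.74 and 0.80 (adjusted P = 0.555 and 0.984, edgeR). With 1 library left out, the value in LGR5- cells went from 0.28 (without treated library 3) to 1.87 (without untreated library 3), and that in LGR5+ cells from -0.56 to 0.60 (without untreated library 2).

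Of the 4 relatives, none was called in either population, where 16.0% of genes were called in LGR5+ cells (9.66% higher, 6.37% lower) and 15.4% in LGR5- cells (8.30% higher, 7.11% lower). The study's own thresholds were P under 0.05 and a logFC above 1.5 in size, read here as unadjusted P and log2. None of the 4 relatives passed them, while 7.23% of genes passed in LGR5+ and 7.00% in LGR5- cells. Groups without overlap in LGR5+ cells, seen for Fhl3 and Robo1, occurred for 42.3% of all genes, and in LGR5- cells for 27.1%. The LGR5+ response minus the LGR5- response was 0.59 for Fhl1, 0.65 for Fhl3, -0.46 for Robo1 and -0.78 for Robo2 on the log2 scale, all at an adjusted P of 1.0 (edgeR), and the Robo2 value went from -1.90 (without untreated LGR5- library 3) to -0.15 (without untreated LGR5+ library 2). In that comparison 0% of genes were called, with 254 at an unadjusted P under 0.05 and 0 by DESeq2. A gap of this size between the chosen genes and their relatives is partly set by the choice of Fhl2 and Robo3.

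**Figure D2:**
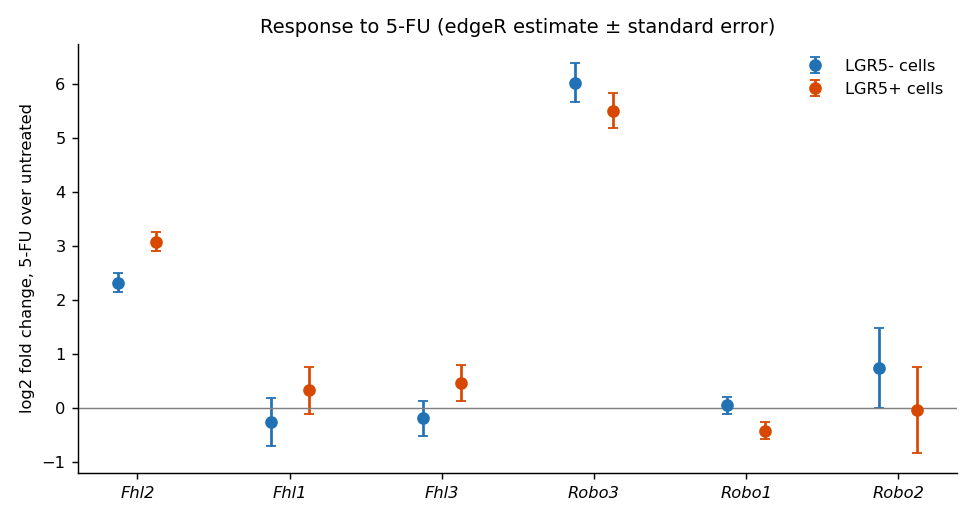
Fitted log2 fold change after 5-FU with its standard error for the 6 genes in LGR5- and LGR5+ cells. Fhl2 (2.33 and 3.09) and Robo3 (6.03 and 5.51), which were chosen on these values, lie above the 4 relatives, which lie between -0.41 and 0.75.

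The genes next in order of P give the surroundings of the choice. In LGR5+ cells, places 3 to 5 were held by Fst, which encodes the activin antagonist follistatin, with a log2 fold change of 3.48, by the alpha globin gene Hba-a1 with 6.73 and by the gamma synuclein gene Sncg with 5.27. In LGR5- cells Hba-a1 with 6.86 came right after Robo3, and Sncg with 5.26 held place 4. Fhl2 at place 9 was followed by the homeobox gene Nkx2-9 with 2.89, the death receptor gene Fas with 3.09 and the TNF receptor family gene Tnfrsf18 with 3.18. All of them had a larger fitted rise than Fhl2 in the same cells and a larger standard error. Hba-a1 has a near-identical copy, so its reads may be split between copies.

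**Figure D3:**
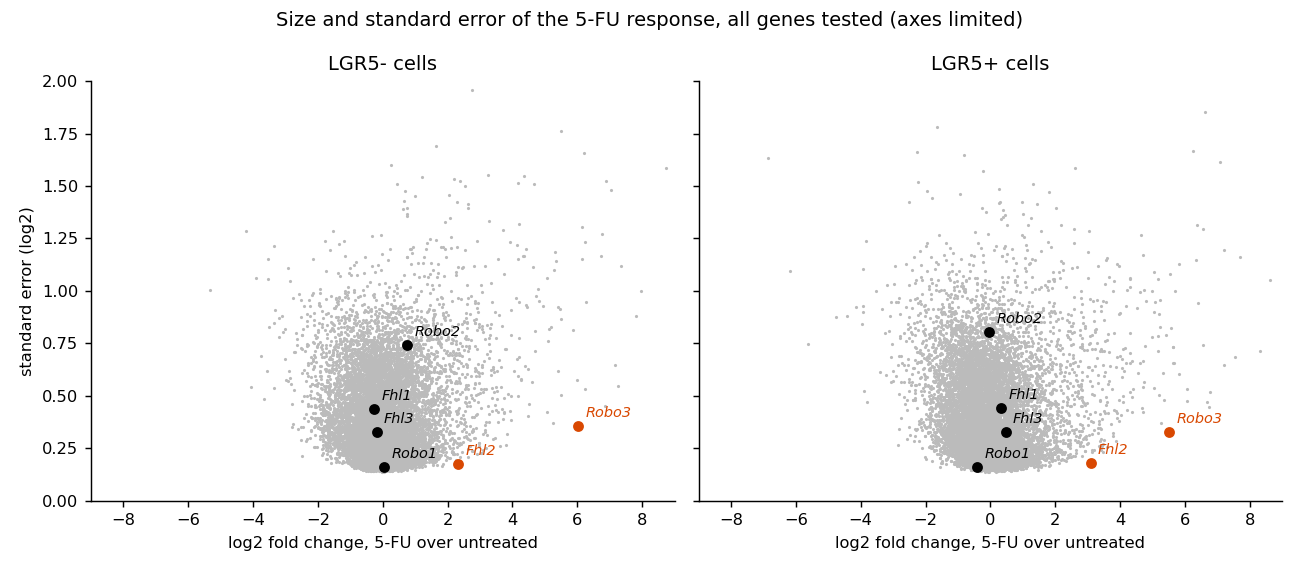
Fitted log2 fold change after 5-FU against its standard error for all 16157 genes tested, on axes that leave out a few extreme genes. Fhl2 has one of the lowest standard errors among strong rises (0.18), and Robo3 reaches 6.03 and 5.51 at 0.35 and 0.33. Both genes were chosen by P, which rests on the fold change and its standard error. Their places in this plot therefore restate the choice and are no separate finding.

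The makeup of each family changed with the chosen genes. Levels were compared per length, as CPM per kilobase of merged exons (Fhl2 1897, Fhl1 3714, Fhl3 1683, Robo3 6848, Robo1 16511 and Robo2 16983 bases). Each family is here its 3 genes above, and Fhl4 (1 to 15 reads per library) and Robo4 (0 to 2 reads) are left out. Fhl2 made up 53.9 ± 0.335% of the summed FHL level in untreated LGR5- cells and 58.3 ± 4.67% in untreated LGR5+ cells, with Fhl3 as the next at 34.5% and 32.7%. After 5-FU it made up 87.2 ± 2.22% and 89.5 ± 2.12% (SD, n = 3). The summed FHL level went from 4.29 to 13.3 CPM per kilobase in LGR5- cells and from 3.92 to 21.6 in LGR5+ cells. Robo1 held 97.1% and 96.4% of the ROBO level in untreated LGR5- and LGR5+ cells, and Robo3 held 1.47% and 2.60%. After 5-FU Robo3 held 48.6 ± 3.77% in LGR5- cells, beside 50.2% for Robo1, and 62.0 ± 1.80% in LGR5+ cells, beside 37.5% for Robo1. Per kilobase of merged exons, the ROBO messages were thus nearly all Robo1 in untreated cells and about equally or mostly Robo3 in treated cells. This rests on the length used: in CPM alone, Robo1 exceeded Robo3 after 5-FU in both populations. The means were 41.6 against 16.7 CPM in LGR5- and 33.6 against 23.1 CPM in LGR5+ cells. Which transcripts of each gene were made was not measured.

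**Figure D4:**
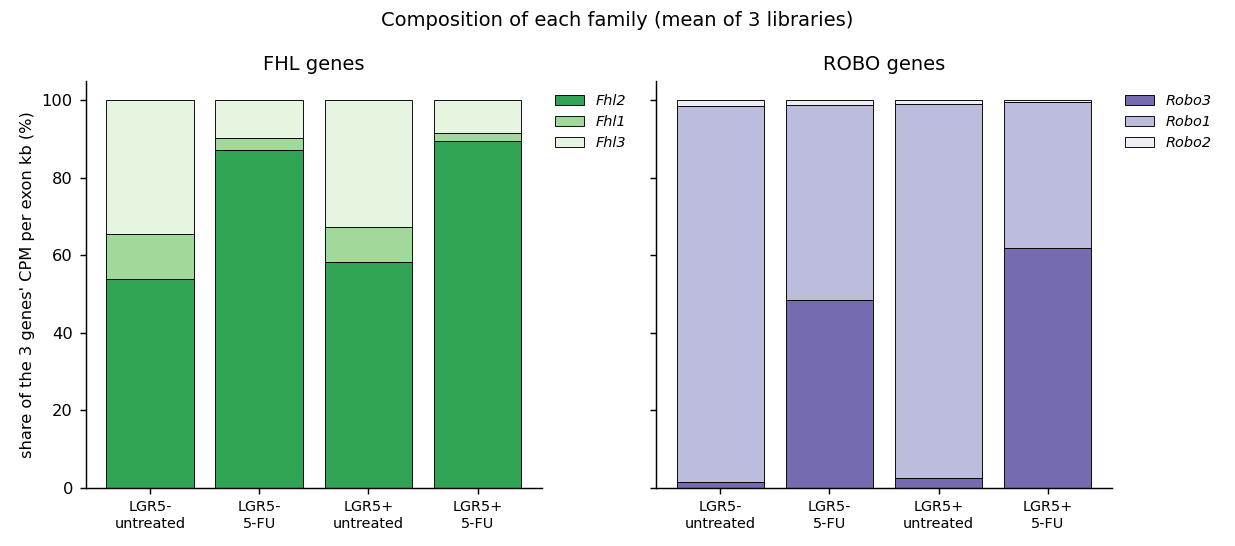
Share of each gene in the summed CPM per kilobase of exon of its family, mean of 3 libraries in each group, with bars adding to 100%. Fhl2 goes from 53.9% and 58.3% to 87.2% and 89.5%, and Robo3 from 1.47% and 2.60% to 48.6% and 62.0% in LGR5- and LGR5+ cells.

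In bulk RNA, fewer cells of a type and less RNA per cell cannot be told apart, so the levels of other cell types' markers are given. Neuron and glia genes summed to 0.760 to 5.06 CPM over 9 genes, with Elavl4 and Stmn2 at 0 reads in all libraries, and were at 0.760 to 1.91 CPM in treated LGR5+ cells, where Robo3 was highest. Fibroblast and muscle genes, over 11 genes, summed to 42.1 to 50.6 CPM in untreated and 27.6 to 61.8 CPM in treated libraries, mostly Dcn, with Lum and Actc1 at 0 reads. Endothelium genes, over 5 genes, went from 15.4 to 19.2 CPM in untreated to 8.95 to 14.8 CPM in treated libraries. Leukocyte genes, over 6 genes, moved with treatment, from 6.29 to 13.9 CPM to 17.0 to 54.6 CPM, mostly Cd68, with Cd3e at 0 reads. The sort stained for CD45 to remove leukocytes, per the methods, and its gene Ptprc held 3 to 36 reads per library. Bile duct genes, over 6 genes, also moved, from 2387 to 3109 CPM to 3411 to 7776 CPM in treated LGR5- and 7980 to 11872 CPM in treated LGR5+ cells, so that this list, like Fhl2 and Robo3, did not overlap between the treated populations. The 8 hepatocyte genes went from 10.5 to 22.4 CPM to 26.0 to 56.5 CPM, mostly Afp. Lung epithelium genes lay at 3512 to 17429 CPM in untreated and 2758 to 6205 CPM in treated libraries. The part of the lists that moved in the Fhl2 and Robo3 values was not tested.

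Nearby genes were examined because reads or regulation can be shared between neighbours. The pseudogene Gm8210 lies within Fhl2 on the opposite strand, shares 0 exon bases with it and held 910 to 1641 reads per library, more than Fhl2. Its log2 fold changes were -0.25 in LGR5- and -0.33 in LGR5+ cells (adjusted P = 0.425 and 0.277, edgeR), and it was not called in either population. Strand use in counting was not given in the sources used here. Of 3 coding genes within 150 kb of Fhl2, 2 were tested and 0 called. Robo4, the endothelial roundabout gene, lies 553 bases from Robo3 on the opposite strand and had 2 reads in all, both in untreated LGR5- cells. Of 8 coding genes within 150 kb of Robo3, 6 were tested. Ccdc15, a coiled-coil gene, fell by 1.19 on the log2 scale in LGR5+ and by 1.17 in LGR5- cells, and Nrgn, the neurogranin gene, fell by 2.02 in LGR5+ cells (adjusted P = 0.0203, 0.0235 and 0.0206, edgeR). Nrgn had -1.07 in LGR5- cells (adjusted P = 0.199, edgeR). No neighbour of either gene was called higher. These counts, 2 of 6 in LGR5+ and 1 of 6 in LGR5- cells near Robo3, stand against 16.0% and 15.4% of all genes.

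The genes whose profile over the 12 libraries was most like that of Fhl2, by the root mean square difference of centred log2 CPM, were Ndnf (0.21), Serpine2 (0.21), Pxdc1 (0.22), Anxa3 (0.27) and Procr (0.30). Ndnf encodes a secreted neurotrophic factor, Serpine2 a protease inhibitor, Anxa3 an annexin and Procr the endothelial protein C receptor. For Robo3 they were Sncg (0.48), Ly6g6c (0.52), Scn3b, a sodium channel subunit gene (0.64), Tshr, the thyrotropin receptor gene (0.71), and Ms4a10 (0.73). Fhl2 and Robo3 themselves differed by 1.55, since Robo3 moved over a far wider range. These places are descriptions over libraries that share treatment and depth.

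For the receptors, the partners came next. All 4 lists were written with earlier results of these data known, so their shares are descriptions and no independent support. Of 37 listed genes of SLIT, ROBO and netrin guidance besides the 6, 36 were in the table and 28 had enough reads to test. In LGR5+ cells 5 were higher and 1 lower (21.4% called), with a median log2 fold change of 0.15 against -0.02 over all genes. In LGR5- cells 4 were higher and 0 lower (14.3% called), with a median of 0.17 against -0.05. These shares stand against 16.0% and 15.4% of all genes, and the count in LGR5+ cells was 3 without either treated library 2 or 3 or untreated library 1 or 3, and 10 without both LGR5- libraries numbered 3. In LGR5- cells it was 7 without untreated library 3.

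Of the ligands, Nell2, which encodes the ROBO3 ligand, and Slit3 had 0 reads in every library, and Nell1 at most 1. Slit1 held 27 to 65 reads, with a log2 fold change of 0.63 in LGR5+ and 0.25 in LGR5- cells (adjusted P = 0.198 and 0.646, edgeR). Slit2 held 93 to 519 reads, with log2 fold changes of -0.95 and -0.63 in the same order (adjusted P = 0.154 and 0.359, edgeR). Among netrins, Ntn1 held 0 to 17 reads, with 1.15 and 0.26 (adjusted P = 0.428 and 0.893, edgeR). Ntn4, a laminin-binding netrin, rose in LGR5+ cells, by 1.97 with a standard error of 0.53 (adjusted P = 0.0206, edgeR), from 0.319 to 1.27 CPM, and had 1.0 in LGR5- cells (adjusted P = 0.254, edgeR).

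Among receptors and coreceptors, Dcc, the netrin receptor that works with ROBO3 in neurons, had at most 2 reads and was not tested. The surface genes below rose in both populations. Sdc1, a heparan sulfate proteoglycan gene, rose by 2.04 in LGR5+ and by 1.21 in LGR5- cells. Flrt3, whose product binds ROBO1 and UNC5 receptors, rose by 1.03 and 0.96. Gpc1, a glypican gene, rose by 0.95 and 0.74, and Unc5b, a netrin receptor gene, by 0.68 and 1.02. Their adjusted P ranged from 4.35e-05 to 0.0278 (edgeR). Of the effectors inside the cell, Evl, an actin-assembly gene named after its value was seen, fell by 0.58 in LGR5+ cells (adjusted P = 0.0379, edgeR) and had a close value of -0.54 in LGR5- cells (adjusted P = 0.0552, edgeR). No other effector was called in either population.

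For Fhl2, other LIM adaptors were listed. Of 32 genes, 27 were tested, and 9 were higher and 0 lower in LGR5+ cells (33.3% called, median log2 fold change 0.36), and 8 higher and 0 lower in LGR5- cells (29.6% called, median 0.27). Over all genes 16.0% and 15.4% were called, with medians of -0.02 and -0.05. All 8 of the latter were also higher in LGR5+ cells. Pdlim2, a PDZ and LIM adaptor gene, rose by 1.86 in LGR5+ and 1.65 in LGR5- cells. Pdlim7, of the same class, rose by 1.5 and 1.11. Crip2, a cysteine-rich LIM gene, rose by 1.5 and 1.05, and Zyx, which encodes the focal adhesion protein zyxin, by 1.29 and 0.92. Their adjusted P ranged from 2.81e-05 to 0.0219 (edgeR). The count in LGR5+ cells was 5 without treated library 2 or untreated library 3, and that in LGR5- cells 5 without treated library 1.

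Fhl2 is itself a known SRF target, and 25 other genes under SRF or encoding its partners were listed, 21 of them tested. In LGR5+ cells 9 were higher and 1 lower (47.6% called), with a median log2 fold change of 1.0, and in LGR5- cells 8 were higher and 0 lower (38.1% called), with a median of 0.54. The shares over all genes were 16.0% and 15.4%, and the medians -0.02 and -0.05. As this list was also written with earlier results known, the gap is a description, and a role of SRF was not tested. Ankrd1, an ankyrin repeat gene of stressed muscle, rose by 3.59 in LGR5+ and 2.35 in LGR5- cells, from 0.360 to 4.41 and from 0.604 to 3.12 CPM. Ccn1 and Ccn2, genes of matricellular proteins, rose by 2.77 and 2.06 in LGR5+ and by 2.16 and 1.43 in LGR5- cells, and Tpm1, a tropomyosin gene, by 2.02 and 1.28. Their adjusted P ranged from 9.10e-06 to 0.00460 (edgeR). Ccn1, Ccn2 and Ankrd1 are also well-known YAP targets. Other members did not rise: Myl9 fell by 2.06 in LGR5+ cells (adjusted P = 0.0313, edgeR) and had -1.26 in LGR5- cells (adjusted P = 0.177, edgeR), and Tagln had 0.28 and 0.57 in LGR5+ and LGR5- cells (adjusted P = 0.782 and 0.527, edgeR). Srf itself had 0.29 and 0.05 (adjusted P = 0.342 and 0.899, edgeR). The last 3 genes were named after their values were seen. The count in LGR5- cells was 5 without treated library 2 or untreated library 1.

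Among 24 listed proteins that bind FHL2, 23 were tested, and 6 were higher and 1 lower in each population (30.4% called), with medians of 0.18 in LGR5+ and -0.10 in LGR5- cells, where 16.0% and 15.4% of all genes were called and the medians were -0.02 and -0.05. Higher in both were genes of the AP-1 factor: Fosl1 rose by 2.66 in LGR5+ and 2.27 in LGR5- cells, Fos by 1.55 and 1.57, and Jun by 1.36 and 0.89. Sphk1, a sphingosine kinase gene, rose by 1.96 and 1.31. Brca1, a DNA repair gene, fell by 1.62 and 1.60. Their adjusted P ranged from 5.80e-04 to 0.0341 (edgeR). Ctnnb1, the beta-catenin gene, had -0.24 and -0.42 (adjusted P = 0.540 and 0.267, edgeR) and was named after its value was seen. The count in LGR5- cells was 4 without treated library 2 and 3 without untreated library 2. In none of the 4 lists was a gap between the responses of LGR5+ and LGR5- cells called (smallest adjusted P = 1.0, edgeR).

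**Figure D5:**
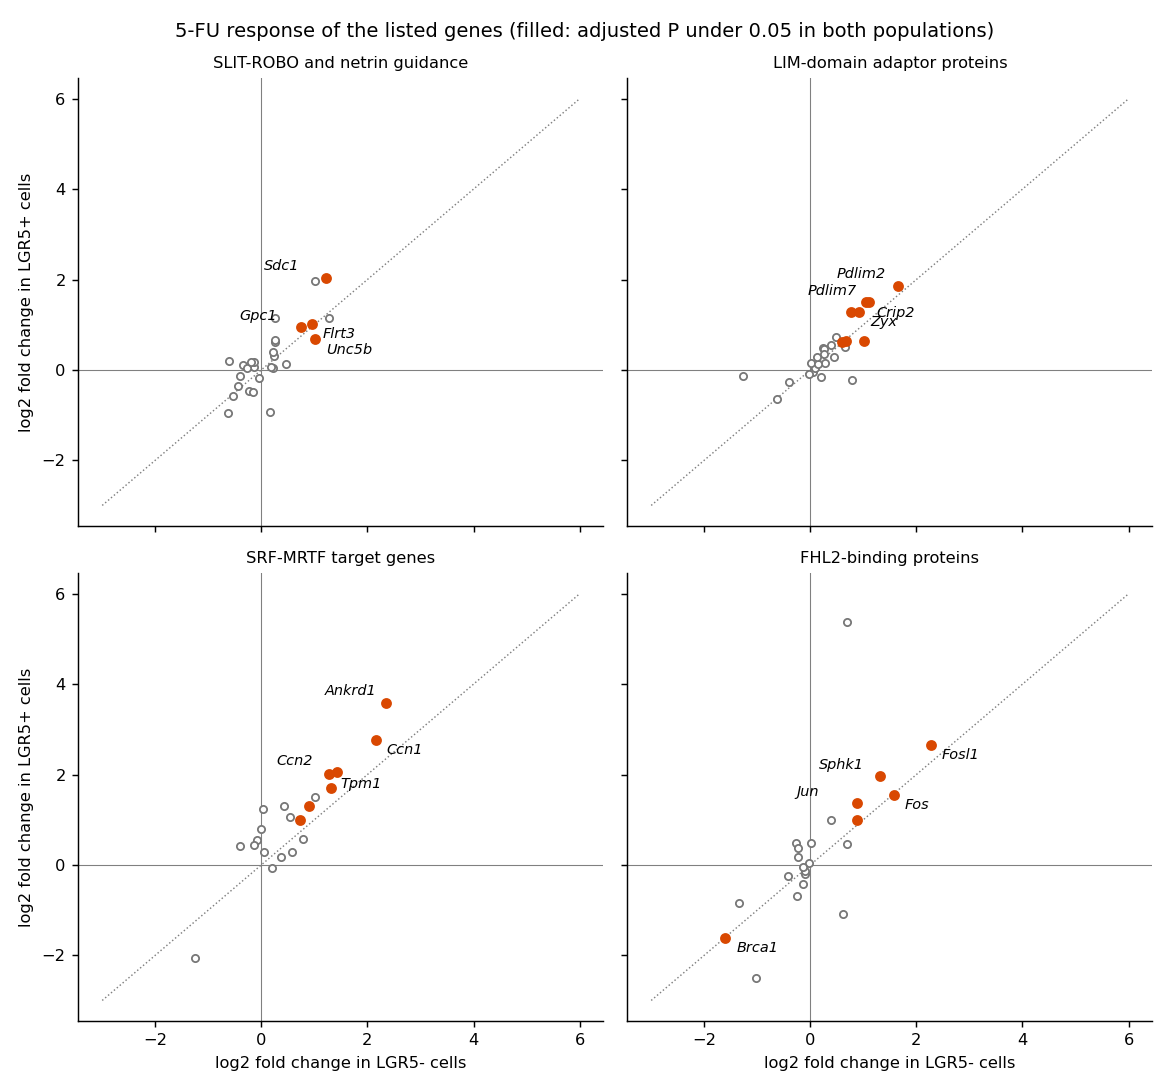
Log2 fold change after 5-FU in LGR5- cells (horizontal) against LGR5+ cells (vertical) for the tested genes of the 4 lists, with filled points for an adjusted P under 0.05 in both populations and a dotted line of equal response. The SRF-MRTF genes reach 3.59 with Ankrd1, and Brca1 lies lowest among the filled points.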

How the data were processed

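The authors amplified RNA of sorted cells with a SMARTer kit, had paired-end libraries sequenced and deposited 1 table of whole-number read counts, without normalization, for 47069 Ensembl genes in 12 libraries. The submitters' processing notes name HISAT2, HISAT, TopHat2, HTSeq and build mm8, without versions. Of the identifiers, 46488 matched a symbol in GENCODE M21 (GRCm38) and 581 did not, and positions and exon lengths are from that annotation, not from the counting. All sample columns were used.

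Groups and replicate numbers came from the titles, read with the series' design text. Counts were filtered by filterByExpr (16157 genes), scaled by TMM and fitted in edgeR 4.0.16 (R 4.3.3, limma 3.58.1) with robust glmQLFit on 4 group means over all 12 libraries and glmQLFTest contrasts, with Benjamini-Hochberg adjustment over all genes tested and calls at an adjusted P under 0.05. CPM uses TMM-scaled library sizes. The standard error is the log2 fold change divided by the square root of F. Tests of Fhl2 and Robo3 between populations had been planned and are not given, since the same libraries chose both genes. The fit was tested on simulated data. Lists were described by counts and medians, with no set test. The 6 genes and the lists were chosen with earlier results of these data known. Named from each list were all tested ligands and up to 4 genes per role called in both populations with the largest mean change, and the 5 genes most like Fhl2 and Robo3 and the 3 next by P were added. Predicted Rik and Gm genes were not described, apart from Gm8210, which overlaps Fhl2. Nell1, Nell2, Slit3, Dcc, Robo4 and the other neighbours within 150 kb fall outside this rule.

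Promoter windows and their motifs came from RefSeq (GRCm38.p6), where all 6 genes matched. Any 2 libraries of a group differed by chi-square per degree of freedom of 11.3 or more, so none was a copy. The deviations of libraries with the same number correlated above 0.1 for all 3 numbers only in treated LGR5+ against LGR5- cells (0.54, 0.20 and 0.28). There LGR5+ library 2 and LGR5- library 3, with unlike numbers, also did (0.11). Pairing by number is therefore possible but was not given, and the main fit did not use it. 8 alternatives were computed: no filter, a minimum of 10 reads in each library, DESeq2 size factors, library size only, DESeq2 1.42.0, only the libraries compared, a replicate block, and each library left out. Leaving out both LGR5- libraries numbered 3 was added after seeing the data.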

Additional observations from a re-analysis of the deposited data

How the results depend on the processing

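Of 576 values under alternatives for 40 results, 539 kept direction and side of the threshold, or a count within 1.5 times. The replicate block changed no call of the 6 genes, added 1 call in SLIT-ROBO genes of each population (7 and 5) and in LIM genes of LGR5+ cells (10), and turned 1 sign, Robo2 after 5-FU in LGR5+ cells (0.071), which ranged from -0.56 to 0.60 with a library left out. Robo2 in untreated LGR5+ against LGR5- cells was 0.65 without both LGR5- libraries numbered 3 and -1.10 to 0.65 with 1 left out. Fhl2 in that comparison was 0.013 with no filter, 0.042 without both libraries and -0.097 to 0.042 with 1 left out. Its difference in treated cells, given without a test, was 0.72 with DESeq2. With 1 library left out, values after 5-FU in LGR5- cells were -0.57 to 0.048 for Fhl1, -0.36 to 0.0020 for Fhl3 and -0.033 to 0.17 for Robo1, Robo3 in LGR5+ cells was 5.19 to 6.13, and its difference between responses -0.85 to 0.10. Robo1 in LGR5+ cells was called, 1 of 4 relatives, with only the libraries compared (-0.42) and without both libraries.

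In LGR5+ cells, SLIT-ROBO calls numbered 3 with no filter, 10 without both libraries and 3 to 6 with 1 left out, and LIM calls 5 to 9. In LGR5- cells, with only the libraries compared, LIM calls numbered 4, SRF-MRTF calls 5 and FHL2-binding calls 4. With 1 library left out there they numbered 3 to 7 (SLIT-ROBO), 5 to 11 (LIM), 5 to 9 (SRF-MRTF) and 3 to 6 (FHL2-binding). The cause was not tested. Depth limits Robo2 and untreated Robo3, where a few reads decide a fold.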
